A study of Caenorhabditis elegans with 2 samples.

Results

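The genes for secreted signalling peptides of Caenorhabditis elegans were examined for binding of MDL-1 in ChIP-seq data (chromatin immunoprecipitation followed by sequencing). They were chosen by symbol: protein-coding genes named nlp-, flp- or ins- plus a number, and daf-28, in the Ensembl annotation of WBcel235. The rule found 141 of 19973 protein-coding genes, of which 71 were nlp genes, 31 flp genes and 39 insulin-like genes (ins genes and daf-28). The window of a gene covered 2000 bp before and 200 bp after its annotated 5' end, and a gene counted as bound in a list where a peak summit of that list fell in the window. All animals were L1 larvae, the first larval stage, of strain OP106, of both sexes and taken whole, in 2 biological replicates of 1 group. The strain carries the mutation unc-119(ed3) and the integrated array wgIs106, from which MDL-1 fused to eGFP is made, and no untagged or other group is compared here. The signal is summed over all cells of the larva, so binding in few cells and weak binding in many cannot be told apart.

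Most nlp genes encode neuropeptide-like precursors and flp genes encode FMRFamide-like precursors, which are cut into short, usually amidated peptides and released from dense-core vesicles to act on G protein-coupled receptors. Several nlp genes are instead expressed in the epidermis and encode antimicrobial peptides. Insulin-like peptides act through the single insulin receptor of the worm, DAF-2, some as agonists and some as antagonists, and control dauer arrest, growth and lifespan. MDL-1, the MAD-family protein of the worm, binds the E-box CACGTG together with its partner MXL-1. Many peptide genes of the worm lie in tandem clusters with short distances between genes, so neighbouring genes can share a window.

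The authors deposited an optimal list filtered by irreproducible discovery rate (IDR) and longer relaxed lists. The IDR list held 3870 peaks, which were the highest-scoring peaks of the relaxed list made from the pooled replicates, and its scores ran from 32.7 to 680. The 3 relaxed lists, of the pooled replicates, of replicate 1 and of replicate 2, held 30000 peaks each, and their deposited names say that they mix peaks with background. Scores are those of the authors' peak caller, on a scale that the sources used here do not give, and were compared only within a list. A rank of 1 is the highest score of a list. Read totals are not in these lists, so depth was unknown.

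Of the 141 genes, 10 had an IDR summit in the window (7.09%, exact 95% interval 3.45 to 12.7%), against 16.7% of all protein-coding genes. They were 7 nlp genes (nlp-12, nlp-29, nlp-30, nlp-31, nlp-34, nlp-71 and nlp-76), 2 flp genes (flp-18 and flp-23) and 1 insulin-like gene, ins-39. Together they had 9 different summits, since nlp-30, nlp-31 and nlp-34 shared 1 and nlp-76 had 2. The median pooled score of these 9 was 50.4, against 61.2 for the 2426 IDR summits in windows of all protein-coding genes. No gene of the 141 had an IDR summit in its body outside the window.

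For 7 of the 9 IDR summits the sequence is given as 101 bases of the + strand of WBcel235 (the sequence of ce11) centred on the summit. The other 2, that of nlp-12 and the second of nlp-76, are described without sequence. Capitals mark every CANNTG, the general E-box, which includes CACGTG.
ins-39, chrX:1344995-1345095: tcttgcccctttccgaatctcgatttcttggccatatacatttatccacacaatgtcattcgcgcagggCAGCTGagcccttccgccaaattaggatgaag
nlp-76 upstream, chrX:12665163-12665263: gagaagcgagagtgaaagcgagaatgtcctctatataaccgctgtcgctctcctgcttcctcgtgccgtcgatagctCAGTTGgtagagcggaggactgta
nlp-31 and nlp-34, chrV:3979944-3980044: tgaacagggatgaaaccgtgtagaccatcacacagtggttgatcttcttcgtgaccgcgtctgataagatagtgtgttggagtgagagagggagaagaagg
nlp-29, chrV:3984296-3984396: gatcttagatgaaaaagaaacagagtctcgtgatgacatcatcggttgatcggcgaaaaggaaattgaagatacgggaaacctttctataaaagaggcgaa
flp-18, chrX:3020138-3020238: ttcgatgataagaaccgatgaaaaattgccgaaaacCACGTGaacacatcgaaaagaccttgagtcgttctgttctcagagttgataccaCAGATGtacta
flp-23, chrIII:8650405-8650505: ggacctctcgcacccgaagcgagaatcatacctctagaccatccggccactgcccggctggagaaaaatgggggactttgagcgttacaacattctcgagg
nlp-71, chrIV:6415311-6415411: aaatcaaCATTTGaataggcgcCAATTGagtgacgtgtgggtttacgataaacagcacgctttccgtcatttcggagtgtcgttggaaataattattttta
Among the 9 IDR summits, 1 had CACGTG within 50 bp (11.1%), that of flp-18, against 267 of 2426 (11.0%) for IDR summits in windows of all protein-coding genes. A CANNTG of any kind was found at 4 of 9, against 48.3% of the 2426. The letters GATAA or their complement TTATC, the core of the site of GATA factors, stood at 4 of 9, against 18.0%. GAGAGA or TCTCTC stood at 2 of 9, against 26.3%. The median GC content of the 101 bases was 48.5% at the 9 summits and 47.5% at the 2426.

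**Figure D1:**
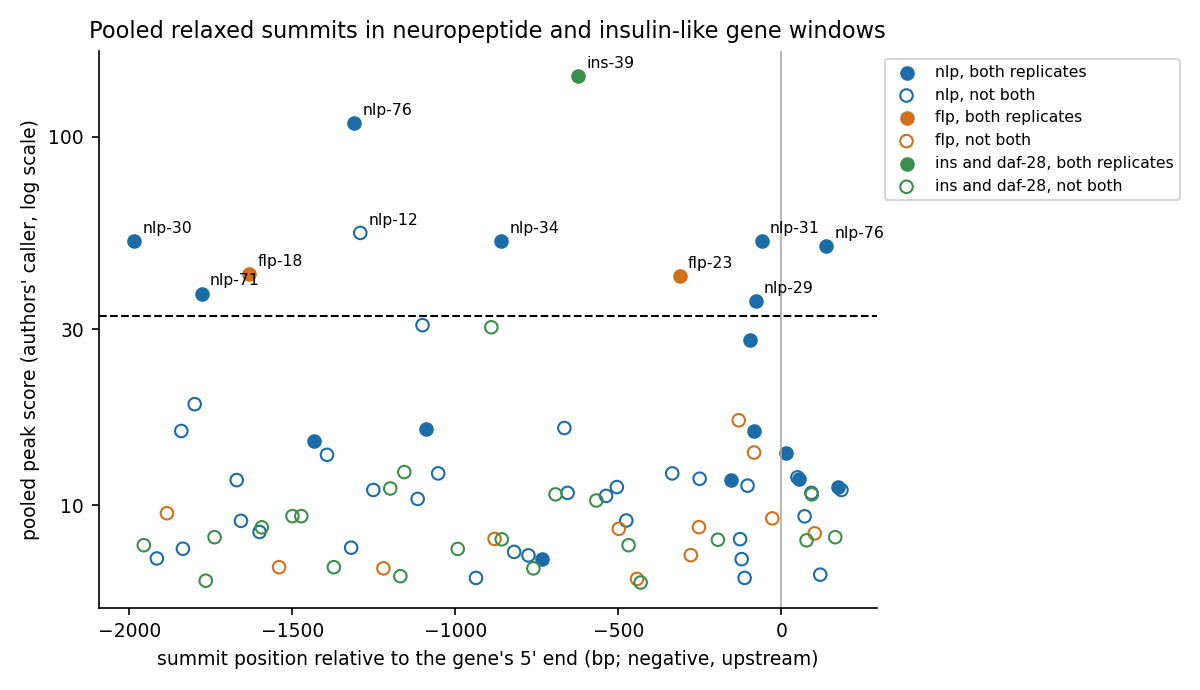
Each point is a pooled relaxed summit in the window of 1 gene, at its distance from that gene's 5' end (x axis, bp) and its pooled peak score (y axis, log scale). Colours give the family, filled points have a summit within 100 bp in both replicates, and the dashed line is the lowest IDR score, 32.7; the named points above it include ins-39 at 146 and nlp-76 at 109, and the open points below the line reach 30.8 at most.

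The highest peak of all 141 genes stood at ins-39 (WBGene00017668, chromosome X, 1343758 to 1344421, - strand), an insulin-like peptide gene. Its summit lay 624 bp upstream of the 5' end in intergenic sequence, with the nearest protein-coding gene 13349 bp upstream. The peak spanned 1344968 to 1345122, had a pooled score of 146 and ranked 383 in the pooled list. It ranked 390 in replicate 1 and 421 in replicate 2, so both replicates placed it at nearly the same height, and their summits lay within 20 bp of the pooled one. Its single E-box was CAGCTG, and no CACGTG lay anywhere in its window. It was the only insulin-like gene with an IDR summit.

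The nlp-76 gene (WBGene00045386, chromosome X, 12662478 to 12663903, - strand), named as a neuropeptide-like gene, had 2 IDR summits. The stronger, 1310 bp upstream, scored 109 in the pooled list and ranked 718 in replicate 1 and 812 in replicate 2. It lay in an intron of nhr-17, a nuclear hormone receptor gene, and 15 bp from an annotated tRNA gene of 84 bp (12665228 to 12665311). The other summit, 136 bp downstream of the 5' end in the 5' UTR of nlp-76, scored 50.4. That one ranked 9572 in replicate 1 and 876 in replicate 2, so it was among the highest 3870 peaks of replicate 2 but not of replicate 1.

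A tRNA gene also stood beside the summit of flp-23 (WBGene00017693, chromosome III, 8650767 to 8652194, + strand), a gene for FMRFamide-like peptides. The summit lay 312 bp upstream of flp-23 and 3 bp from a tRNA gene of 72 bp (8650381 to 8650452). It scored 41.8 and ranked 3203 in replicate 1 and 2747 in replicate 2. Thus 2 of the 9 IDR summits had a tRNA gene within 200 bp (22.2%), against 3.22% of the 2426 in windows of all protein-coding genes. Only 3 of the 141 windows held a tRNA gene at all, and the remaining one, that of nlp-62, had no pooled relaxed summit. Without the summits beside tRNA genes, 9 of 141 genes had an IDR summit (6.38%), because nlp-76 kept its 5' UTR summit. With the same summits left out, 16.3% of all protein-coding genes had one. Whether the signal belongs to the tRNA gene or to the peptide gene was not tested.

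The flp-18 gene (WBGene00001461, chromosome X, 3012182 to 3018555, - strand) encodes FMRFamide-like peptides that act at the receptors NPR-4 and NPR-5 in foraging. It had the only IDR summit of the 141 genes with CACGTG within 50 bp. The summit stood 1633 bp upstream, scored 42.3 and ranked 2798 in replicate 1 and 3640 in replicate 2, with the replicate 2 summit at the same base as the pooled one. A further relaxed summit 131 bp upstream, with a score of 17.0, had a partner within 100 bp in replicate 2 (rank 4177) and none in replicate 1.

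Another pair of peaks was closer to the 5' end of another gene than to the peptide gene. The summit of nlp-71 (WBGene00022254, chromosome IV, 6409557 to 6413582, - strand) lay 1779 bp upstream of it and 117 bp from the 5' end of exos-2, an exosome subunit gene. It scored 37.5 and ranked 5106 in replicate 1 and 2857 in replicate 2.

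The other such gene was nlp-12 (WBGene00003750, chromosome I, 1843384 to 1843959, + strand), which encodes cholecystokinin-like peptides of the DVA neuron that act on locomotion. Its summit lay 1292 bp upstream and 353 bp from the 5' end of emr-1, the emerin gene. The pooled score was 54.8 and the rank in replicate 1 was 3025. Replicate 2 had no summit within 100 bp of it but had one 147 bp away, at rank 2457. With each summit given only to the nearest 5' end of a protein-coding gene, 6 of the 141 genes had an IDR summit. They were flp-18, flp-23, ins-39, nlp-29, nlp-31 and nlp-76. Genes for tRNA were left out of that rule.

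Tandem clusters were runs of 2 or more genes of 1 family with at most 10000 bp between gene bodies. There were 11, holding 40 of the 141 genes, and 7 of them had 3 or more genes. Of the 101 genes outside clusters, 6 had an IDR summit (5.94%), against 16.7% of all protein-coding genes. By family these were 3 of 59 nlp genes (5.08%), 2 of 28 flp genes (7.14%) and 1 of 14 insulin-like genes (7.14%). Of the 40 clustered genes, 4 had an IDR summit (10%), also below 16.7%. All 4 belonged to 1 cluster, so the clustered genes with IDR summits stand for 2 summits at a single locus.

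That cluster lies on chromosome V (3978825 to 3989770) and holds nlp-34, nlp-31, nlp-30, nlp-29, nlp-28 and nlp-27. Its peptides are glycine-rich, and nlp-29 and nlp-31 are known as epidermal antimicrobial peptide genes that fungal infection and wounding induce. The summit between the divergent genes nlp-34 and nlp-31 stood 61 bp upstream of nlp-31 (WBGene00003769) and 860 bp upstream of nlp-34 (WBGene00015046), and the 2000 bp window of nlp-30 (WBGene00003768) just reached it, 1986 bp upstream. It scored 52.1 and ranked 3000 in replicate 1 and 1570 in replicate 2, with replicate summits 50 and 65 bp away on opposite sides. A second IDR summit stood 79 bp upstream of nlp-29 (WBGene00003767, 3984425 to 3984847), with a score of 35.8. That one ranked 2602 in replicate 1 but 18991 in replicate 2, where the nearest summit was 81 bp away, so the replicates placed it at very different heights.

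Another summit of the cluster, 97 bp upstream of nlp-27 (WBGene00003765), scored 28, below the lowest IDR score. Both replicates had it within 3 bp, at ranks 5852 and 3436. The nlp-28 gene had no summit in the pooled list or in replicate 1, and its only relaxed summit, in replicate 2, ranked 29810. The 3 summits found within 100 bp in both replicates therefore stood 61 to 97 bp upstream of nlp-31, nlp-29 and nlp-27, and none of them had CACGTG within 50 bp. No CACGTG lay anywhere in the windows of these 3 genes, nor in those of nlp-30 and nlp-34. With replicate summits matched within 50 bp, only the nlp-27 summit would count. A replicate summit stood 65 bp from that of nlp-31 and 81 bp from that of nlp-29.

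**Figure D2:**
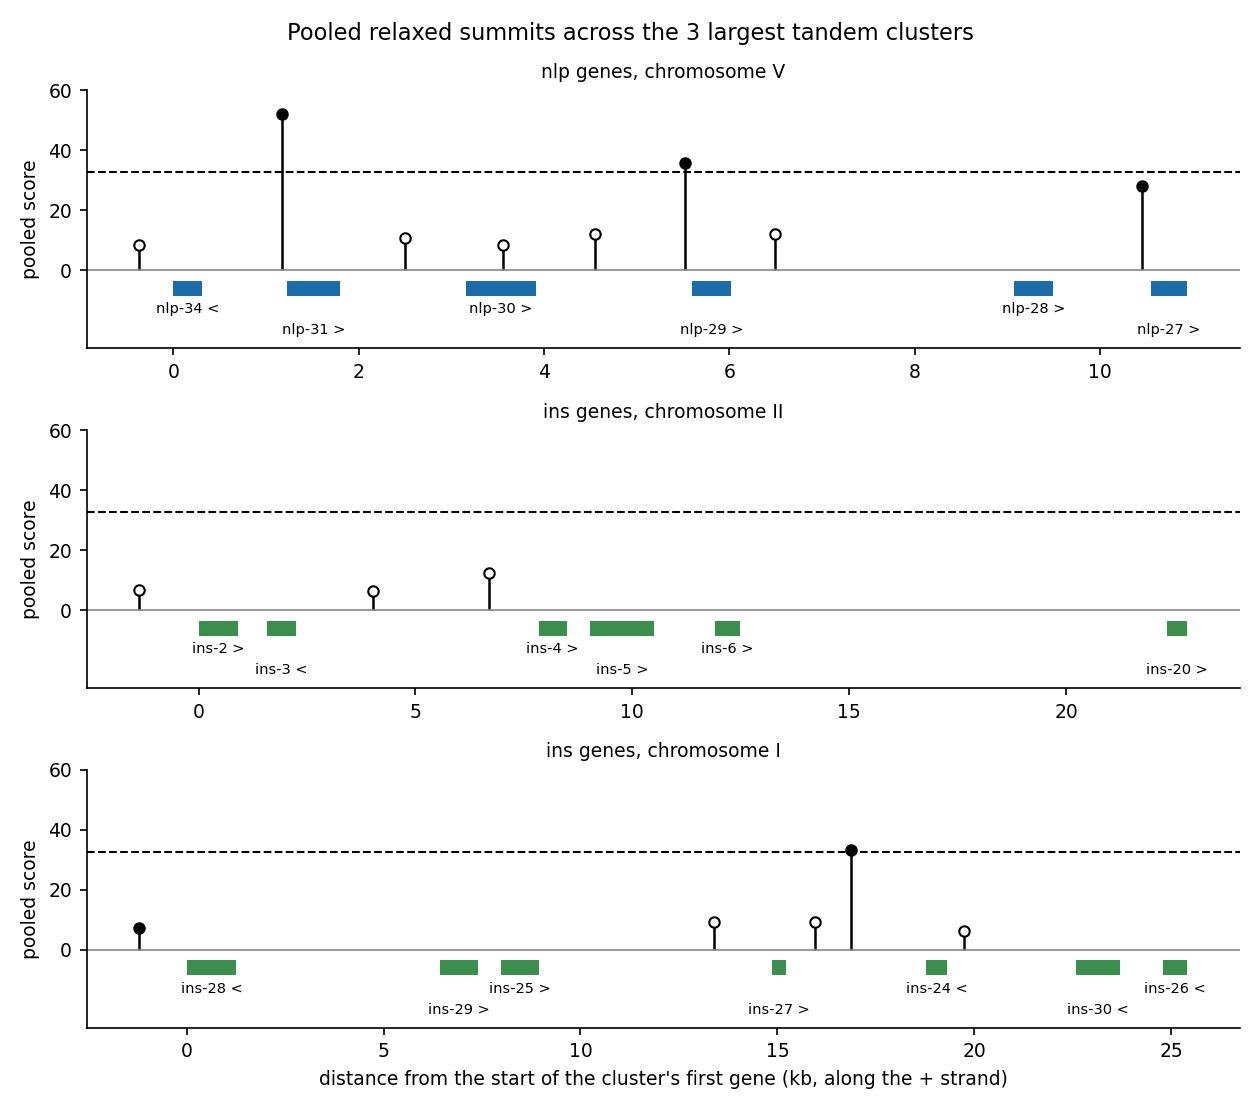
The 3 largest tandem clusters, drawn along the chromosome (x axis, kb from the start of the first gene), with genes as blocks and arrows for their strand, and each pooled relaxed summit as a stem at its pooled score (y axis). Filled heads have a summit within 100 bp in both replicates and the dashed line is the lowest IDR score, 32.7; the nlp cluster on V holds peaks of 52.1, 35.8 and 28, and the ins cluster on II none above 12.3.

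No insulin-like cluster had an IDR summit in a window of its genes. Of 25 clustered insulin-like genes, 0 had an IDR summit (exact 95% interval up to 13.7%), against 16.7% of all protein-coding genes. A pooled summit found in both replicates stood at 0 of the 25, against 27.6%. The interval treats neighbouring genes as independent, which they are not, so it is too narrow. The cluster on chromosome II (5988524 to 6011321) holds ins-2, ins-3, ins-4, ins-5, ins-6 and ins-20, and 3 of its 6 genes had a pooled relaxed summit, with a highest score of 12.3 at ins-4, which ranked 8086 in replicate 1 and had no partner in replicate 2. The ins-4 and ins-6 peptides are DAF-2 agonists that counter dauer arrest. The ins-6 window held no summit in any relaxed list, although it contained a CACGTG.

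The cluster of 7 genes on chromosome I (14012369 to 14037777), from ins-28 to ins-26, had pooled relaxed summits at 2 genes, ins-27 and ins-24. An IDR summit did lie within the cluster, with a score of 33.3 and ranks of 6412 and 5328 in the replicates, but it stood 19 bp from the 5' end of ZC334.12 and in no insulin-like gene's window. Among the other clusters, ins-11, ins-12 and ins-13 on II had a summit at ins-12 that scored 30.4. It ranked 3156 in replicate 1, and the replicate 2 summit was 144 bp away at rank 12001. The ins-11 gene had a pooled relaxed summit of score 7.61. IDR summits also stood near this cluster but in no window of its genes, 591 bp downstream of the 5' end of ins-11 and 555 bp downstream of that of ins-13, in both cases past the 3' end of the gene. The 2 genes ins-14 and ins-15 on II and the 3 genes flp-2, flp-3 and flp-28 on X had none in the pooled list or in either replicate. The 4 genes nlp-2, nlp-22, nlp-23 and nlp-45 on X had 1, at nlp-45, with a score of 11.7, in an intron of T01B6.1. On III, the 3 genes ins-21, ins-22 and ins-23 had 1 pooled relaxed summit, at ins-22. It scored 8.08 and had no partner within 100 bp in replicate 1.

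Among other well-studied insulin-like genes, 2 outside the clusters had no summit. The daf-28 gene, whose product is a DAF-2 agonist that counters dauer arrest, and ins-1, reported as an antagonist, had none in any of the 3 relaxed lists. Their nearest IDR summits were 82613 and 33261 bp from the 5' ends. The ins-7 gene, another agonist, which lies in tandem with ins-8, had a pooled relaxed summit of score 8.19 without a partner within 100 bp in either replicate. Replicate 2 had another summit in the ins-7 window, at rank 8317, and replicate 1 had none there.

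The relaxed lists gave a wider but noisier view. A pooled relaxed summit lay in the window of 61 of the 141 genes (43.3%), against 51.9% of all protein-coding genes. By family these were 31 of 71 nlp genes (43.7%), 11 of 31 flp genes (35.5%) and 19 of 39 insulin-like genes (48.7%). The median of each gene's highest pooled score was 11.0 over the 61, against 17.2 over the 10362 protein-coding genes with a summit. By family that median was 12.2 for nlp, 8.72 for flp and 8.19 for insulin-like genes. Of the 141 genes, 57 had no summit in any relaxed list (40.4%), namely 26 nlp, 15 flp and 16 insulin-like genes. The share among all protein-coding genes was 30.9%.

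When both replicates were required, the families stood further apart with all genes counted, but less far apart outside tandem clusters. A pooled relaxed summit with a partner within 100 bp in both replicates was found at 18 of the 141 genes (12.8%), against 27.6% of all protein-coding genes. That was 15 of 71 nlp genes (21.1%), 2 of 31 flp genes (6.45%) and 1 of 39 insulin-like genes (2.56%). The count of 18 was 12 with partners within 50 bp and 23 within 200 bp. The genes lost at 50 bp were all nlp genes, namely nlp-25, nlp-29, nlp-30, nlp-31, nlp-33 and nlp-34, so the nlp share depends on this distance. In replicate 1 alone, 59 of the 141 genes had a relaxed summit (41.8%), against 53.5% of all protein-coding genes, and in replicate 2 alone 57 had one (40.4%), against 53.1%. Insulin-like genes had one at 17 of 39 in replicate 1 and at 9 of 39 in replicate 2, and flp genes at 8 and 12 of 31. Of the 82 different pooled relaxed summits in these windows, 17 had partners in both replicates (20.7%), against 37.3% of the 12467 in windows of all protein-coding genes.

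**Figure D3:**
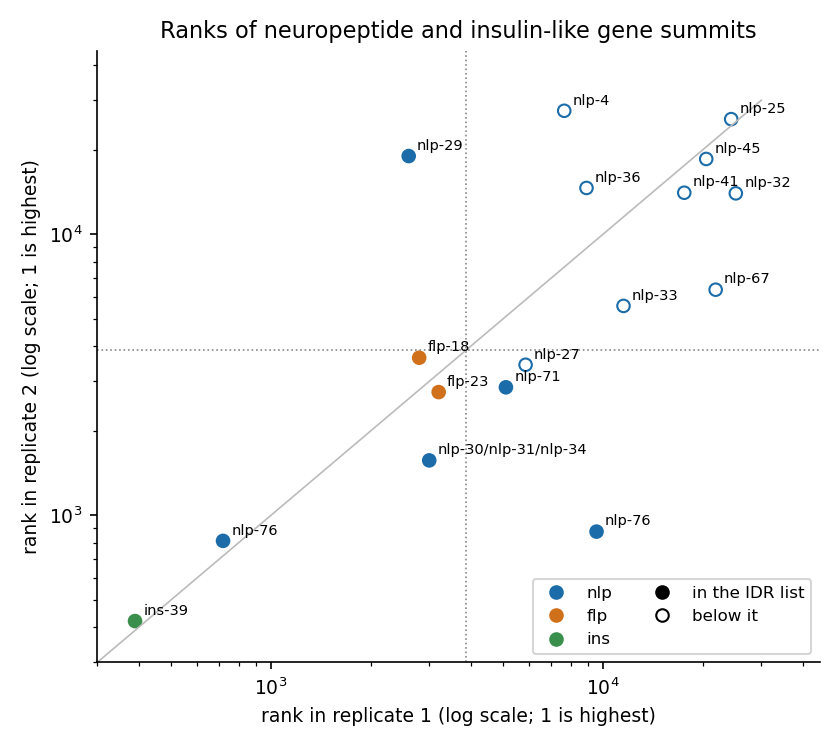
Rank in replicate 1 (x axis) against rank in replicate 2 (y axis), both on log scales, for the 17 pooled relaxed summits found in both replicates; filled points are in the IDR list, dotted lines mark rank 3870 and the grey line marks equal ranks. Only ins-39, at ranks 390 and 421, and the upstream nlp-76 summit, at ranks 718 and 812, rank within 812 in both, and nlp-29 and the second nlp-76 summit lie far from the line.

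All 9 genes with a summit in both replicates that was outside the IDR list were nlp genes, the family of 71 of the 141 genes. After nlp-27 these were nlp-36, nlp-4, nlp-67, nlp-33, nlp-41, nlp-45, nlp-32 and nlp-25, with pooled scores of 16.1 down to 7.15. Those of nlp-33 and nlp-25 would not count with a distance of 50 bp, since their replicate 2 summits stood 87 and 97 bp away. The summit of nlp-36 stood 1090 bp upstream at ranks 8928 and 14625, and that of nlp-4 stood 84 bp upstream in a window shared with exos-3 and ndub-10, at ranks 7650 and 27519. The summits of nlp-33, nlp-41 and nlp-32 lay 14 to 172 bp downstream of their own 5' ends. The nlp-33 gene, which has an antimicrobial-like product, had ranks of 11540 and 5565. All of these were far below rank 3870 in at least 1 replicate.

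Just below the IDR list, few further peptide genes appeared. Within the 7740 highest pooled peaks, 3 genes of the 141 were added (2.13%), namely nlp-64 (30.8), ins-12 (30.4) and nlp-27 (28), against 9.68% of all protein-coding genes. The best nlp-64 summit, 1101 bp upstream, was nearer to the 5' end of M02E1.4, at 862 bp. That summit ranked 3296 in replicate 1 and had no partner within 100 bp in replicate 2.

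CACGTG was present in the windows of 48 of the 141 genes (34%), against 30.4% of all protein-coding genes. Of the 48 genes, 3 had an IDR summit (flp-18, flp-23 and nlp-76), and of the 93 without the hexamer 7 had one. Among all protein-coding genes the shares were 20.6% with and 15.0% without it. By family, 29 of 71 nlp windows, 8 of 31 flp windows and 11 of 39 insulin-like windows held it. Of the 82 relaxed summits, 3 had CACGTG within 50 bp (3.66%), against 4.91% of the 12467. Besides flp-18 these were the summits of ins-12, 890 bp upstream, and nlp-52, 1841 bp upstream with a score of 15.9 and a rank of 3613 in replicate 1, both without a partner within 100 bp in replicate 2. Their sequences are shown because they are the only other summits at an E-box of this kind, again on the + strand with every CANNTG in capitals.
ins-12, chrII:5553677-5553777: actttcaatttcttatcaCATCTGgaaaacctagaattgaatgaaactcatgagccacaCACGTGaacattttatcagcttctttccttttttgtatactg
nlp-52, chrIII:759885-759985: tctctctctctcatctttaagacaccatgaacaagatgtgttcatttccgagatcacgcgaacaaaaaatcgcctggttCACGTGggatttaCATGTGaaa

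Peptide genes had longer upstream regions than most genes. The median distance to the next protein-coding gene body upstream was 2540 bp for the 141 genes, against 936 bp for all protein-coding genes. The 82 genes with at least 2000 bp upstream had an IDR summit in 2 cases (2.44%, ins-39 and flp-18), against 13.7% of all protein-coding genes with such upstream regions. The 59 genes with less had one in 8 cases (13.6%), against 18.1%. These 8 include the 4 genes of the nlp cluster on V, with 2 summits among them. They also include nlp-12 and nlp-71, whose summits were nearer to the 5' ends of emr-1 and exos-2. The median distance of an IDR summit from the 5' end was 860 bp over the 11 pairs of gene and summit, against 362 bp over all protein-coding genes. The median distance from the 5' end to the nearest IDR summit of the whole genome was 11519 bp, against 10646 bp.

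By chromosome, IDR summits were found at 1 of 19 peptide genes on I, 0 of 28 on II, 1 of 17 on III, 1 of 19 on IV, 4 of 24 on V and 3 of 34 on X. The shares of all protein-coding genes were 21.3%, 15.2%, 23.9%, 15.7%, 11.1% and 18.3% in the same order. The 4 genes on V are those of the nlp cluster, and without shared summits they stand for 2 peaks. The 28 genes on II, which include 13 clustered insulin-like genes, had none.

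Genes that make and release the peptides were compared next, from a list of 24 names of which rab-2 matched no symbol. Of 23 genes for processing, sorting and release of peptides, 5 had an IDR summit (21.7%, exact 95% interval 7.46 to 43.7%), a share near the 16.7% of all protein-coding genes. These were ric-19, a RAB-2 effector of dense-core vesicle maturation (score 65.4), egl-3, the neuropeptide proprotein convertase (59.9), sbt-1, its 7B2-like chaperone (55.2), aex-5, another convertase (41.5), and cccp-1 (34.5). A pooled relaxed summit stood at 19 of the 23 (82.6%), against 51.9% of all protein-coding genes, and one found in both replicates at 12 (52.2%), against 27.6%. The carboxypeptidase gene egl-21 had a relaxed summit of score 14.7, with no partner within 100 bp in replicate 2. Its nearest protein-coding 5' end was that of F01D4.5. The release factor gene unc-31 and the amidating enzyme gene pamn-1 had no summit in the pooled list. None of the highest summits at these 23 genes had CACGTG within 50 bp.

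Of 105 genes for peptide receptors, 1 had an IDR summit (0.952%, exact 95% interval 0.0241 to 5.19%), against 16.7% of all protein-coding genes. This was npr-23, with a score of 81.0, 161 bp upstream, at ranks 1039 and 1291. The next were frpr-14 (32.7, pooled rank 3875, just outside the IDR list), dmsr-1 (17.8) and sprr-1 (15.2). For the frpr-14 summit the nearest protein-coding 5' end was that of K07E8.7. A pooled relaxed summit stood at 29 of the 105 (27.6%), against 51.9% of all protein-coding genes, and one found in both replicates at 9 (8.57%), against 27.6%. Their median upstream distance was 10600 bp, the longest of the lists compared here.

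**Figure D4:**
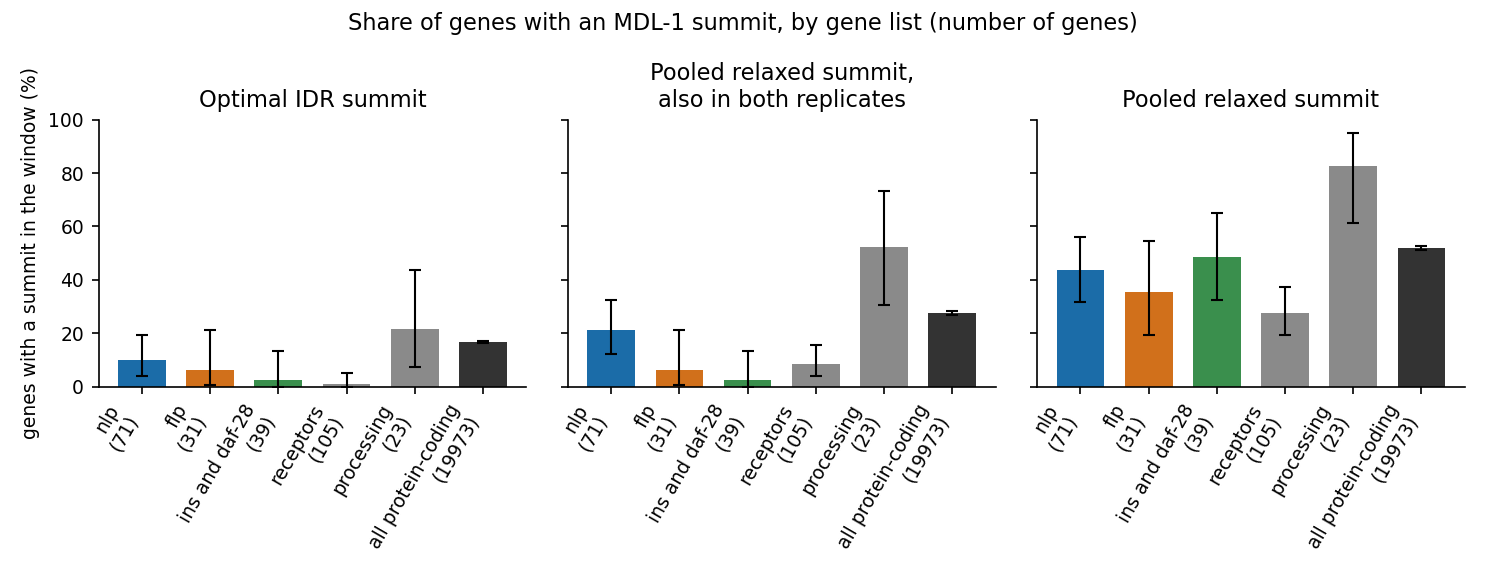
Share of genes with a summit in the window (y axis, %) for nlp, flp and insulin-like genes, receptor and processing genes, and all protein-coding genes, with the number of genes in brackets and exact 95% intervals as bars. The 3 panels count optimal IDR summits, pooled relaxed summits found in both replicates, and all pooled relaxed summits. In the first panel the nlp, flp and insulin-like families stand at 9.86%, 6.45% and 2.56%, against 16.7% of all protein-coding genes. Outside tandem clusters, which are not drawn apart, the IDR shares of the families were 5.08%, 7.14% and 7.14% in the same order.

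Genes in a cluster share windows and some share summits, so the intervals above, which cover counting error only, are too narrow where genes are not independent. No test was made between the gene families and all protein-coding genes, and with 2 replicates whose scores share no stated scale, no SD is attached to scores or shares.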

How the data were processed

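ChIP-seq peak lists of eGFP-tagged MDL-1 were analysed in 2 biological replicates of L1 larvae. The labels give a fragment size range of 150 to 350 bp. The aligner, the peak caller and the IDR threshold: not given in the sources used here. For ce11, the authors made 3 relaxed lists (replicate 1, replicate 2 and pooled, the last also from a file listed for the control-normalised signal) and derived the IDR list from all 3, according to the deposited inventories of files. Each deposited list gives a peak score, used for ranks within a list, and a −log10 q-value, which was not used. Since the scale may differ from list to list, no SD of scores is given. Lists on ce10 were not used.

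Summits were assigned to windows on Ensembl release 115 genes (WBcel235, the sequence of ce11), in Python 3.11.15 with scipy 1.17.1. A summit counted for every gene whose window held it, and replicate summits were matched within 100 bp, taking the best rank. Intervals are exact Clopper-Pearson 95% intervals. Assignment was checked on planted summits. The genes and lists were chosen with earlier results of these data known. Named genes were all those with an IDR summit, then those with a summit in both replicates by score, a few fixed insulin-like and nlp genes, and up to 4 genes of each other list by score. Others were named after their values were seen. Receptor genes were those named npr, frpr, dmsr, nmur, tkr, ckr, gnrr, ntr or sprr plus a number, and egl-6, pdfr-1, seb-3, aex-2, trhr-1 and daf-2. Alternatives covered windows, peak sets, distances and each replicate alone.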

Additional observations from a re-analysis of the deposited data

How the results depend on the processing

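The count of 10 peptide genes with an IDR summit was 6 with 1000 bp upstream (against 12.8% of all protein-coding genes) and 4 with 500 bp (10.3%). It was 6 with each summit given to the nearest protein-coding 5' end only (11.2%). Among the 1935 highest IDR peaks it was 2 (9.38%), namely ins-39 and nlp-76. With 1 replicate left out, the highest peaks of the other replicate's relaxed list were counted, which are not IDR peaks. The count was then 9 without replicate 1 (16.3%) and 12 without replicate 2 (16.2%). The share stayed below that of all protein-coding genes in each of these settings. The 61 genes with a pooled relaxed summit fell to 34 with 500 bp upstream and to 34 among the 15000 highest peaks, and ranged from 57 to 59 without 1 replicate. The 18 genes with a summit in both replicates were 10 with 500 bp upstream. For these relaxed-list counts at other settings, the share of all protein-coding genes is not given. With 2 times as many pooled peaks, receptor genes with a summit were 3 of 105 and processing genes 13 of 23, against 26.4% of all protein-coding genes. Processing genes were 2 of 23 among the 1935 highest IDR peaks, against 9.38%. Among the highest peaks of 1 replicate's relaxed list, receptor genes with a summit were 1 in both cases. Processing genes were 6 in both cases, against 5 with an IDR summit. Clustered genes with a relaxed summit were 15 to 16 without 1 replicate, against 20 in the pooled list. The alternative without summits beside tRNA genes was chosen after seeing the data. The other settings moved no count by over 1.5 times. No paired analysis was possible because there is 1 group only. Unknown depth, relaxed lists that end at 30000 peaks and 2 replicates limit what a missing summit shows.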
